A study of Mus musculus with 4 samples.

Results

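Proliferating C1q-high macrophages of the mouse liver are described here from single-cell RNA-seq of sorted hepatic immune cells. A cell was counted as dividing when its barcode held at least 200 detected genes, at most 10% mitochondrial UMIs (unique molecular identifiers, each standing for 1 captured transcript), at least 5 UMIs of C1qa, C1qb and C1qc together per 1000, at least 1 UMI of both Mki67 and Top2a, and no UMI of Cd3d, Cd3e, Cd3g or Cd79a. The cells were thus selected on measured levels of these genes, which are given as a description and carry no test. The rule held for 128 of 6237 kept barcodes, 44 in the library NASH 1 and 47 in NASH 2, against 21 in control 1 and 16 in control 2. They were 128 of 3841 C1q-high cells without those lymphoid transcripts, and 3470 C1q-high cells with neither Mki67 nor Top2a served as the non-dividing cells of the same libraries.

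All 4 libraries were prepared on the 10x Genomics platform from livers of C57BL/6J mice. The NASH group was fed the Amylin liver NASH model diet, a dietary model of nonalcoholic steatohepatitis, and the control group was labelled as control. Perfusion and Liberase digestion took place with 1 µM flavopiridol, an inhibitor of transcription, in every liver. Nonparenchymal cells were enriched on Percoll and OptiPrep, stained for dead cells with Zombie NIR, and sorted as CD45+ CD146-, a gate that keeps leukocytes and leaves out sinusoidal endothelial cells. Each diet had 2 libraries. Ages and weeks of diet are not given in the labels used here. Whether the 2 libraries of a diet came from different mice is not stated either, so the spread between libraries behind the p-values may be technical. Tests on summed counts pool that spread over genes, so their smallest p-values do not measure how closely the libraries agreed for 1 gene. Clusters were not used, and the C1q rule also takes in any other cell rich in C1q.

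Resident macrophages of the liver, the Kupffer cells, can maintain their own numbers by division, and when they are lost, blood monocytes enter and mature in their place. Timd4, a receptor for phosphatidylserine on dying cells, marks long-established Kupffer cells. Clec4f, a lectin, marks Kupffer cells of the mouse, including monocyte-derived ones once they have matured. Trem2, a lipid-sensing receptor, and Cx3cr1, the fractalkine receptor, mark macrophages recruited to the fatty or inflamed liver. Mki67 encodes a protein that coats mitotic chromosomes and Top2a the topoisomerase that untangles replicated DNA, and both are transcribed from S phase to mitosis. C1qa, C1qb and C1qc encode the chains of the complement recognition molecule C1q, which tissue macrophages make.

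Promoters of genes of late division are controlled in common by the DREAM and MuvB complexes and by NF-Y. MuvB binds the cell cycle genes homology region (CHR), commonly TTTGAA, and NF-Y binds CCAAT. The promoters of both rule genes that define division are shown because the cells were found through them, and those of 3 other mitotic genes are shown for comparison. Cdk1 encodes the mitotic kinase, Ccnb2 its cyclin partner B2, and Ube2c the ubiquitin-conjugating enzyme of the anaphase-promoting complex. Each runs from 250 bases before to 50 bases after the RefSeq start, 5′ to 3′ on the gene's strand (build GRCm38.p6), at chr7:135716330-135716629 (minus) for Mki67, chr11:99024140-99024439 (minus) for Top2a, chr10:69352863-69353162 (minus) for Cdk1, chr9:70421505-70421804 (minus) for Ccnb2 and chr2:164769679-164769978 (plus) for Ube2c. Capitals mark TTTGAA or its complement TTCAAA, and CCAAT or its complement ATTGG.
Mki67: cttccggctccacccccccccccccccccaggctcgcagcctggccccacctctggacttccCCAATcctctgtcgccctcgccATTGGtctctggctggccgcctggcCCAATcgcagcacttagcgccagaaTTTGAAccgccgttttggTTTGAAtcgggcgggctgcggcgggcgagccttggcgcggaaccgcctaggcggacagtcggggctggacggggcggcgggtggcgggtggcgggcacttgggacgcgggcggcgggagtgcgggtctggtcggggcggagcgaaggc
Top2a: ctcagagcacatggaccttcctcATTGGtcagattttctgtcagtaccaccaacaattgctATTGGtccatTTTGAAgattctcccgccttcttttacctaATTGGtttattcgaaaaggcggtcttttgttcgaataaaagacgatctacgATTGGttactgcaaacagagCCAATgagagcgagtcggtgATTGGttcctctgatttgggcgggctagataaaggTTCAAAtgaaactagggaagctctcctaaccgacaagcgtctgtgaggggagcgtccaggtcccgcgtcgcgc
Cdk1: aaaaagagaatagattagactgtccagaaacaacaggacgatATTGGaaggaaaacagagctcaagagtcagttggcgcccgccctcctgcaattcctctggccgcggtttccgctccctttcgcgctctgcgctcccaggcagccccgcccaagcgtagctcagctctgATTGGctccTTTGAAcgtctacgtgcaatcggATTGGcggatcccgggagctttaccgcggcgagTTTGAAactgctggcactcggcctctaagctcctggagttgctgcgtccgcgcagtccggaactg
Ccnb2: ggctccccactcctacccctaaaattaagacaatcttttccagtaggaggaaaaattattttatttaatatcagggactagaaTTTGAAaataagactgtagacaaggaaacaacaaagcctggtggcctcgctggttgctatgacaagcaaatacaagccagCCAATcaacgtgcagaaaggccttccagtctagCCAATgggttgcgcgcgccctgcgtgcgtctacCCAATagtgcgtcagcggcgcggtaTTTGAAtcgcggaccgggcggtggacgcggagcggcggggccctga
Ube2c: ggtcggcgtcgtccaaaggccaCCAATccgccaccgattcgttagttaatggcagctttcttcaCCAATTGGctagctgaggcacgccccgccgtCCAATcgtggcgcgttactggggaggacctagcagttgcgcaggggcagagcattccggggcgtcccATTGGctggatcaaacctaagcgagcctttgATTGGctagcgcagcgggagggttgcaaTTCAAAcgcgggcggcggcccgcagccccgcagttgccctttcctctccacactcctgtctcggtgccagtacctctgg

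TTTGAA or TTCAAA occurred 2 times in the windows of Mki67, Top2a, Cdk1 and Ccnb2 and 1 time in that of Ube2c. CCAAT or ATTGG occurred 3 times in Mki67, Cdk1 and Ccnb2 and 6 times in Top2a and Ube2c, where 1 CCAAT and 1 ATTGG share letters. Across 32817 RefSeq promoter windows of the same length, 17.9% held the CHR letters, 37.4% the CCAAT letters and 6.94% both. Of 43 windows of 39 genes of G2 and mitosis, 67.4% held the CHR letters, 76.7% the CCAAT letters and 55.8% both. Of 27 windows of 24 genes of replication and S phase, 11.1% held the CHR letters, 63.0% the CCAAT letters and 7.41% both. The windows of Kupffer cell identity genes, 17 windows of 15 genes, held them in 29.4%, 47.1% and 17.6%. These are matches of letters and not measured binding.

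Depth differed between the diets and touches every count of cells below. Dividing cells had a median of 14590.5 and 13197 UMIs in NASH 1 and NASH 2, against 4407 and 4233 in control 1 and control 2, and non-dividing cells had 7995 and 7671 against 3158 and 2806. The summed counts of dividing cells were 668605 and 646551 UMIs in NASH, against 111738 and 70859 in control. Their median mitochondrial share was 3.21% and 3.29% in NASH, against 6.63% and 6.15% in control. Shares of cells were therefore also computed after thinning each cell at random to 2000 UMIs, which left out 1 dividing cell in each control library. Of all C1q-high cells it left out 191 of 1009 and 258 of 876 in control, against 0 of 831 and 2 of 1125 in NASH. The thinned shares thus leave out shallow cells almost only in control. The 6 pairs of libraries shared between 1 and 5 kept barcodes, and no dividing cell was among them.

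At the limits of the rule, 12 dividing cells had between 5 and 6 C1q UMIs per 1000. Another 4 cells with Mki67 and Top2a had between 4 and 5 and were not counted, 60 had fewer than 4, and 20 C1q-high ones held a lymphoid UMI. A single Mki67 UMI placed 42 of the 128 cells. At least 2 UMIs of both genes were present in 31 and 29 cells in NASH, against 7 and 11 in control, 78 in all. The C1q genes reached a median of 13.02 and 11.9 UMIs per 1000 in dividing cells of NASH, against 7.38 and 7.56 in control, below the medians of non-dividing cells of the same libraries (16.2 and 18.1 in NASH, against 12.18 and 12.02 in control).

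The macrophage name was checked on 12 core genes, 3 of them the C1q genes of the rule. All 12 had UMIs in the dividing cells, and their summed level was 27842 and 24385 CPM in NASH, against 16082 and 15608 CPM in control. Adgre1, the F4/80 antigen, had 313 and 328 CPM in NASH, against 304 and 593 CPM in control, and Csf1r, the receptor for the macrophage growth factor CSF-1, had 716 and 756 CPM in NASH, against 1307 and 1327 CPM in control. Genes of T cells summed to at most 17.9 CPM and those of NK cells and group 1 innate lymphoid cells to at most 60.3 CPM in any sum of dividing cells. Classical dendritic cell genes lay between 44.7 and 70.6 CPM. Plasmacytoid dendritic cell genes summed to 88.2 and 107 CPM in NASH, against 197 and 409 CPM in control. The 8 monocyte genes summed to 712 and 871 CPM in NASH, against 841 and 395 CPM in control. In non-dividing cells the monocyte genes summed to 614 and 683 CPM in NASH, against 592 and 436 CPM in control. In NASH 1, 2 dividing cells carried 87.1 and 81.3 UMIs per 1000 of neutrophil genes, which put that list at 4367 CPM in the sum, against 63.0 CPM without them. In NASH 2, 1 cell carried 19.3 UMIs per 1000 of erythroid genes. Hepatocyte genes summed to 108 and 77.3 CPM in NASH, against 340.1 and 522 CPM in control, and endothelial genes to 56.8 and 57.2 CPM in NASH, against 233 and 423 CPM in control, so traces of both were higher in control, and their part in the results was not tested.

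The dividing cells carried whole programmes of division and not only the 2 genes that chose them. The 45 genes of G2 and mitosis summed to 7547 and 7285 CPM in NASH, against 9791 and 9625 CPM in control in dividing cells, and to 341 and 347 CPM in NASH, against 465 and 490.2 CPM in control in non-dividing cells. That is 22.1 and 21.01 times higher in NASH and 21.1 and 19.6 times in control, in a list that leaves out Mki67 and Top2a themselves. The 32 genes of replication and S phase were 6.11 and 6.59 times higher in dividing cells of NASH and 6.83 and 8.94 times in control. Of the G2 and mitosis genes 43 of 45, and of the S phase genes 27 of 32, were higher in dividing than in non-dividing cells in all 4 libraries. These ratios follow the choice of cells by Mki67 and Top2a and were not tested.

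Hmgb2, a chromatin protein of cycling cells, stood at 1589.9 and 1655 CPM in NASH, against 2506 and 2357 CPM in control in dividing cells. Birc5, survivin of the chromosomal passenger complex, was measured at 539.9 and 483 CPM in NASH, against 501 and 593 CPM in control. Ube2c, shown above by its promoter, was at 429 and 442 CPM in NASH, against 644 and 466 CPM in control, and Smc4, a condensin subunit, at 368 and 343 CPM in NASH, against 439 and 381 CPM in control. For Hmgb2, Ube2c and Smc4 both NASH libraries lay below both control libraries, and for Birc5 the diets overlapped. Of the S phase genes, Rrm2, a subunit of ribonucleotide reductase, was at 184 and 116 CPM in NASH, against 304 and 508 CPM in control, and Pcna, the clamp of the replication fork, at 212 and 178 CPM in NASH, against 161 and 212 CPM in control. Mki67 itself had 232 and 221 CPM in NASH, against 367 and 621 CPM in control and Top2a 426 and 356 CPM in NASH, against 904 and 1595 CPM in control. Both NASH libraries lay below both control libraries for Rrm2, Mki67 and Top2a, and the diets overlapped for Pcna. A cell at the median depth of a control library passes the rule with 1 UMI worth 227 or 236 CPM, and at the median depth of a NASH library with 1 UMI worth 68.5 or 75.8 CPM.

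Single dividing cells varied in their levels of both cycle lists. The G2 and mitosis list took a median of 7.504 and 6.82 UMIs per 1000 of a dividing cell in NASH (range 0.566 to 18.0 and 1.37 to 23.1), against 7.94 and 9.41 in control (range 1.95 to 19.6 and 5.45 to 16.6). The S phase list took a median of 1.51 and 2.13 per 1000 in NASH, against 1.92 and 3.07 in control. The S phase list exceeded the mitotic list in 6 of 44 and 9 of 47 dividing cells in NASH, against 2 of 21 and 1 of 16 in control, 18 of 128 in all. The ranges of the diets overlapped in both lists. Cells were chosen by Mki67 and Top2a and the lists hold 45 and 32 genes, so the balance of the lists was not read as a phase.

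**Figure D1:**
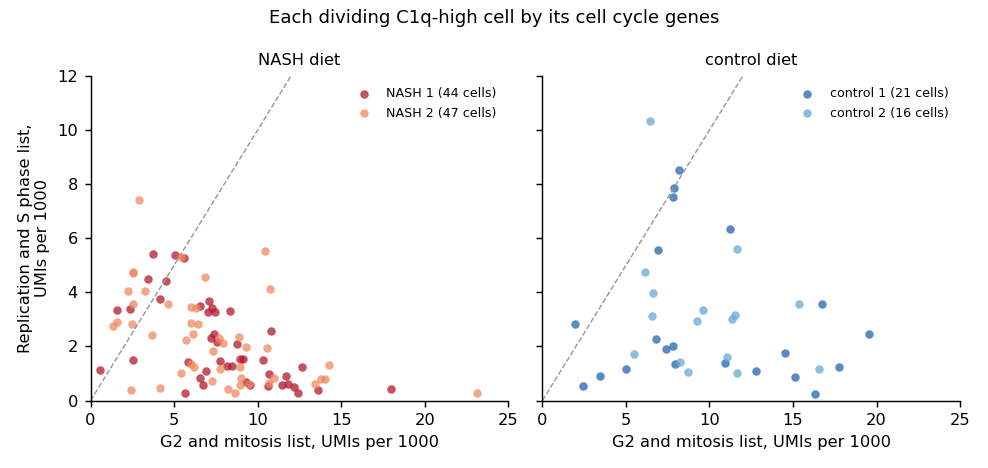
Each point is 1 dividing cell, with its UMIs of G2 and mitosis genes per 1000 against its UMIs of replication and S phase genes per 1000, by library. Most cells lie on the G2 and mitosis side, and 18 of the 128 have more S phase than mitotic UMIs. The cells were chosen by Mki67 and Top2a and the lists differ in length, so the sides are not phases.

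The share of C1q-high cells counted as dividing depended on depth. As deposited, 5.29% and 4.18% of C1q-high cells were dividing in NASH, against 2.08% and 1.83% in control. After thinning each cell to 2000 UMIs, the share was 1.08% in NASH 1 (9 of 831, exact 95% interval 0.496 to 2.05%) and 0.890% in NASH 2 (10 of 1123, 0.428 to 1.63%). It was 1.10% in control 1 (9 of 818, 0.504 to 2.08%) and 1.46% in control 2 (9 of 618, 0.668 to 2.75%). The mean was 0.987 ± 0.136% in NASH and 1.28 ± 0.252% in control (SD, n = 2 each), a difference of -0.29 percentage points, and an exact two-sided permutation test gave p = 0.333, the smallest p that 2 libraries against 2 allow. Every NASH interval overlapped every control interval, so a difference in the share was not detectable at this depth. The direction turned with the C1q minimum at 10 per 1000, where the shares at 2000 UMIs were 0.866% and 0.503% in NASH, against 0.166% and 0.216% in control, and with at most 5% mitochondrial UMIs, where they were 1.04% and 0.722% in NASH, against 0.461% and 0% in control. The C1q levels of dividing control cells lay closer to the minimum of 5 per 1000 than those of NASH, and its part in the share was not tested. Intervals cover counting error only.

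Levels that need no threshold per cell gave no single order either. Over all C1q-high cells, Mki67 and Top2a together stood at 67.04 and 48.8 CPM in NASH, against 70.5 and 89.4 CPM in control. The G2 and mitosis list stood at 1155 and 957 CPM in NASH, against 939 and 901 CPM in control, and the S phase list at 569.9 and 473 CPM against 449 and 424 CPM. For the 2 lists both NASH libraries lay above both control libraries, by less than the gap between the NASH libraries (exact two-sided permutation p = 0.333 for each list). For the pair of rule genes, which carry no test, both NASH libraries lay below both control libraries.

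**Figure D2:**
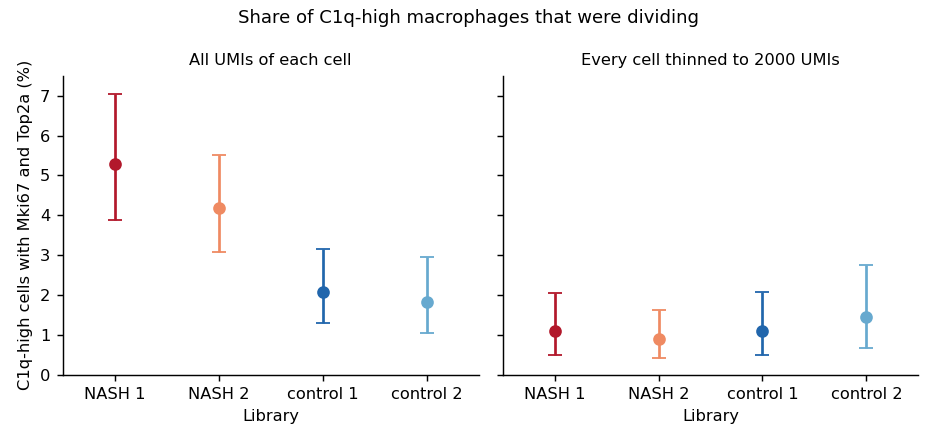
The percentage of C1q-high cells that are dividing, by library, with NASH on the left and control on the right, as deposited and after thinning to 2000 UMIs, with exact 95% binomial intervals. As deposited the NASH libraries are higher (5.29% and 4.18% against 2.08% and 1.83%), and after thinning the intervals overlap.

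Dividing cells under the NASH diet mostly lacked Timd4 and had Trem2, while dividing control cells had Clec4f, often with Timd4, and seldom Trem2 or Cx3cr1. At 2000 UMIs per cell, Timd4 was detected in 3 of 44 (6.82%) and 1 of 47 (2.13%) dividing cells in NASH, against 11 of 20 (55.0%) and 6 of 15 (40.0%) in control. Clec4f was detected in 43.2% and 44.7% of dividing cells in NASH, against 100% and 93.3% in control. Trem2 was detected in 63.6% and 68.1% in NASH, against 10.0% and 6.67% in control. Cx3cr1 was detected in 38.6% and 38.3% in NASH, against 5.00% (1 of 20) and 0 of 15 in control, where 0 of 15 allows a share of up to 20.0%. The NASH and control libraries did not overlap for any of the 4 genes. The difference of the means was -43.0 percentage points for Timd4, -52.7 for Clec4f, 57.5 for Trem2 and 36.0 for Cx3cr1, and the exact two-sided permutation test gave p = 0.333 for each, which is the smallest it can give here and also the adjusted p over the 4 genes.

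Without thinning, Timd4 was detected in 6 of 44 and 4 of 47 dividing cells in NASH, against 17 of 21 and 12 of 16 in control. Trem2 was detected in 44 of 44 and 45 of 47 in NASH, against 7 of 21 and 4 of 16 in control, and Cx3cr1 in 27 and 33 cells in NASH, against 2 and 0 in control. Clec4f was detected in 37 and 35 NASH cells, against 20 of 21 and 16 of 16 control cells, and its difference shrank to -18.3 points without thinning. B cells, which should lack all 4 genes, are given for comparison. The source of the UMIs of these genes in B cells was not tested. At 2000 UMIs B cells had Timd4 in 0% and 1.27% of cells in NASH, against 6.12% and 2.00% in control. Clec4f was found in 7.69% and 7.59% of B cells in NASH, against 28.6% and 14.0% in control. Trem2 was found in 12.8% and 11.4% of B cells in NASH, against 0% and 2.00% in control, and Cx3cr1 in 5.13% and 7.59% against 0% and 2.00%. The Trem2 and Cx3cr1 shares of dividing control cells, from 3 cells and 1 cell, and the Timd4 share of dividing NASH cells, from 4 cells, are too few to be told from the share in B cells. B cells had a median of 4716 and 5263 UMIs in NASH, against 4255 and 3288 in control, before thinning.

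The 4 state genes showed the same split as levels, in CPM of the summed dividing cells, and differences between the diets were tested with the quasi-likelihood test of edgeR, with p-values adjusted by Benjamini and Hochberg's method over all 5343 genes tested. Timd4 (chr11:46810800-46844332 in mm10, plus strand) was at 23.9 and 18.6 CPM in NASH, against 259.5 and 494 CPM in control (log2 fold change -3.70, SE 0.381, adjusted p = 0.000744). Clec4f (chr6:83644542-83656187, minus strand) was at 1173 and 1066 CPM in NASH, against 2828 and 2371 CPM in control (log2 fold change -0.85, SE 0.214, adjusted p = 0.0245). Both fell in NASH, Clec4f by less. Trem2 (chr17:48346401-48354147, plus strand) rose to 936 and 599 CPM in NASH, against 107 and 56.5 CPM in control (log2 fold change 3.51, SE 0.402, adjusted p = 0.00122). Cx3cr1 (chr9:119901616-120069879, minus strand) was at 287 and 320.2 CPM in NASH, against 26.8 and 0 CPM in control, from 399 UMIs in the NASH cells against 3 in the control cells, a ratio of CPM of 18.5 with an exact 95% counting interval of 6.27 to 89.9 (adjusted p = 0.00127). In each of the 4 genes the libraries of the diets did not overlap, where 14.4% of all genes tested passed. With either control library left out, none of the 4 passed (adjusted p up to 0.238), and Clec4f also lost its call without either NASH library and under several other settings (adjusted p up to 0.581).

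Non-dividing cells of the same libraries differed between the diets in the same directions. Timd4 was at 38.8 and 60.4 CPM in NASH, against 432 and 512 CPM in control (log2 -2.87, adjusted p = 4.76e-05, of 10306 genes tested), and Clec4f at 1804 and 2507 CPM in NASH, against 4625 and 4165 CPM in control (log2 -0.66, adjusted p = 0.0112). Trem2 was at 1012 and 856 CPM in NASH, against 53.03 and 64.5 CPM in control (log2 4.37, adjusted p = 2.63e-06), and Cx3cr1 at 249 and 267 CPM in NASH, against 18.2 and 38.2 CPM in control (log2 3.59, adjusted p = 0.000276). In this comparison of more cells 44.2% of genes passed, 23.0% higher and 21.2% lower. The diet difference itself did not differ between dividing and non-dividing cells past the threshold for any of the 4 genes (interaction adjusted p = 0.749 for Timd4, 0.985 for Clec4f, 0.749 for Trem2 and 0.859 for Cx3cr1), which does not show that they were alike.

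Combining the genes at 2000 UMIs, 22 of 44 and 22 of 47 dividing cells in NASH had Trem2 or Cx3cr1 with neither Timd4 nor Clec4f, against 0 of 20 and 0 of 15 in control. Those zeros allow shares of up to 15.0% and 20.0%. Cells with Clec4f but not Timd4 numbered 16 and 20 in NASH, against 9 and 8 in control. Trem2 and Cx3cr1 were found together in 13 and 17 dividing cells in NASH, against 0 and 0 in control. Timd4 with Cx3cr1 was found in no dividing cell of any library at this depth. None of the 4 genes was detected in 3 and 4 cells in NASH, against 0 and 1 in control. Among non-dividing NASH cells, 263 of 728 (36.1%) and 332 of 1009 (32.9%) had Trem2 or Cx3cr1 with neither Timd4 nor Clec4f. In non-dividing control cells this state was found in 6 of 745 and 16 of 559. Trem2 with Cx3cr1 was found in 20.2% and 24.3% of non-dividing NASH cells, against 29.5% and 36.2% of dividing ones. These states depend on depth. Without thinning, Trem2 or Cx3cr1 with neither Timd4 nor Clec4f was left in 7 of 44 and 12 of 47 dividing cells in NASH, against 0 of 21 and 0 of 16 in control. Clec4f without Timd4 was then found in 31 and 31 cells in NASH, against 4 and 4 in control, and Trem2 with Cx3cr1 in 27 and 32, against 2 and 0. Unthinned, Trem2 or Cx3cr1 with neither Timd4 nor Clec4f was found in 26.8% and 24.6% of non-dividing NASH cells, against 15.9% and 25.5% of dividing ones.

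Clec4f split the dividing NASH cells into a high and a low range. At least 1 Clec4f UMI per 1000, a level set after the values were seen, was reached by 15 of 44 (34.1%) and 15 of 47 (31.9%) dividing cells in NASH, against 18 of 21 (85.7%) and 14 of 16 (87.5%) in control. Of the B cells, 0 of 39 and 1 of 79 reached it in NASH, against 2 of 59 and 0 of 64 in control. The 30 Clec4f-high dividing cells of NASH had Timd4 in 9 cells, Cx3cr1 in 8 and Ccr2, the chemokine receptor of monocytes, in 8. The 61 Clec4f-low cells had Timd4 in 1 cell, Cx3cr1 in 52 and Ccr2 in 43. Trem2 was detected in 28 of the 30 and in all 61. Non-dividing NASH cells split at the same level into 908 Clec4f-high and 831 Clec4f-low cells. Timd4 was detected in 270 and 28 of them, Cx3cr1 in 187 and 625, and Ccr2 in 98 and 405. These are counts within groups cut on Clec4f and were not tested.

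A few further genes, picked after their values were seen, are given on both sides of the cut. Vsig4, the complement receptor of the immunoglobulin family, was at 2328 and 1616 CPM in Clec4f-high dividing cells of NASH 1 and NASH 2, against 296 and 72.6 CPM in Clec4f-low ones. Cd5l, a secreted scavenger protein, was at 6638 and 5883 CPM against 1796 and 1682 CPM, and Folr2, a folate receptor, at 1473 and 1036 CPM against 198 and 86.2 CPM. H2-Ab1, a chain of MHC class II, ran the other way, with 3096 and 2321 CPM in Clec4f-high cells, against 7213 and 6922 CPM in Clec4f-low cells. Both groups were chosen for Mki67 and Top2a, whose levels are given as a description. Mki67 was at 223 and 199.5 CPM in Clec4f-high cells, against 236 and 231 CPM in Clec4f-low cells, and Top2a at 546 and 404 CPM against 368 and 333 CPM.

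The Clec4f-high dividing cells of NASH also differed from those of control. Cd163, the scavenger receptor for haemoglobin, was detected in 1 of 30 such cells in NASH, against 30 of 32 in control, although the NASH cells were deeper. Trem2 was detected in 28 of 30 in NASH, against 10 of 32 in control. Gpnmb, a lysosomal glycoprotein of lipid-laden macrophages, was found in 8 and Spp1, osteopontin, in 9 of the 30 NASH cells, against 0 of 32 for both genes in control. The part of the greater NASH depth in the Trem2, Gpnmb and Spp1 counts was not tested. Non-dividing Clec4f-high cells differed in the same directions. Cd163 was detected in 52 of 908 in NASH, against 1479 of 1654 in control, and Trem2 in 802 against 190. Gpnmb was found in 304 against 3 and Spp1 in 169 against 4 of these cells.

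**Figure D3:**
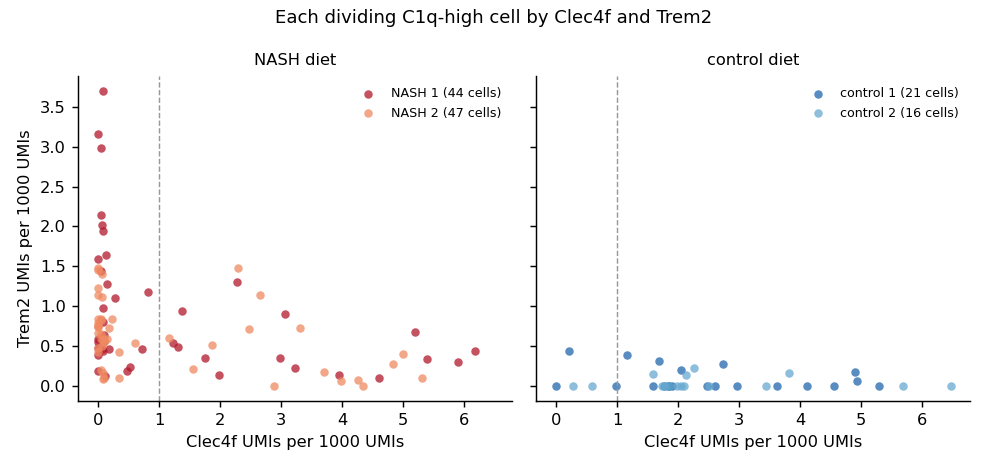
Each point is 1 dividing cell, with its Clec4f UMIs per 1000 against its Trem2 UMIs per 1000, in NASH and in control. The NASH cells fall on both sides of 1 Clec4f UMI per 1000 (30 at or above, 61 below), and 32 of 37 control cells lie at or above it.

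Whether cells of 1 state divided more often than the rest was asked within each library at 2000 UMIs, with both Mki67 and Top2a and the state gene read from the thinned cell. For Trem2 the dividing share of positive minus that of negative cells was -1.48 and -1.36 percentage points in NASH, against 0.528 and 0.203 points in control. For Timd4 the positive minus negative difference was 1.20 and -0.98 points in NASH, against 0.0133 and -0.88 in control. For Clec4f it was -0.63 and -0.50 points in NASH, against 1.12 and -3.42 in control, and for Cx3cr1 0.328 and -0.00415 in NASH, against -1.12 and -1.53 in control. Each share rests on 0 to 10 dividing cells. Over the 4 libraries the mean difference was -0.16 points for Timd4, -0.86 for Clec4f, -0.53 for Trem2 and -0.58 for Cx3cr1. An exact two-sided sign-flip permutation test, which with 4 libraries cannot reach the 0.05 threshold, gave p = 1 for Timd4, 0.5 for Clec4f, 0.5 for Trem2 and 0.375 for Cx3cr1 (adjusted over the 4 genes, at least 0.667). Without thinning, the Trem2 difference was positive in all 4 libraries (mean 3.42 points).

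Levels of the 2 rule genes of division did not always run in the direction of the shares. Mki67 and Top2a together were at 57.4 CPM in Trem2-positive cells and 92.1 CPM in Trem2-negative cells of NASH 1, and at 46.0 and 56.2 CPM in NASH 2. In control 1 the Trem2-positive cells had 61.6 CPM and the negative cells 70.0 CPM, and in control 2 they had 61.1 and 98.5 CPM. The Trem2-positive cells were lower in all 4 libraries by this measure. Cx3cr1-positive cells had 80.4 CPM and Cx3cr1-negative cells 61.6 CPM in NASH 1, and 62.1 and 43.0 CPM in NASH 2. In control 1 these were 117 and 68.2 CPM, and in control 2, 34.0 and 98.6 CPM. Clec4f-positive cells had 57.8 CPM and Clec4f-negative cells 79.7 CPM in NASH 1, and 39.2 and 64.7 CPM in NASH 2, with 69.3 and 68.2 CPM in control 1 and 94.1 and 106 CPM in control 2. Timd4-positive cells had 145 CPM and Timd4-negative cells 62.8 CPM in NASH 1, and 15.7 and 52.03 CPM in NASH 2, with 59.9 and 79.6 CPM in control 1 and 59.9 and 147 CPM in control 2. The libraries of 1 diet differed in direction for Timd4 in NASH and for Clec4f and Cx3cr1 in control.

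Dividing cells of the NASH diet were set against dividing cells of the control diet across all genes next. Of 5343 genes tested, 455 rose (8.52%) and 317 fell (5.93%), 14.4% in all, by edgeR's quasi-likelihood test at an adjusted p of 0.05. Of the genes tested in each list, 13 of 18 lipid-associated, 6 of 12 recruited macrophage and 7 of 7 MHC class II genes rose, and 12 of 19 Kupffer identity genes fell while 2 rose. DESeq2's Wald test called 229 higher and 86 lower. The 37 control cells limit this comparison. Without control 1, 1 gene rose and 0 fell, and without control 2, 0 genes passed by the same test (1155 at an unadjusted p under 0.05). Without NASH 1, 183 rose and 101 fell, and without NASH 2, 206 rose and 111 fell. Every one of the 772 genes that was tested in those 4 fits kept its sign. With the C1q minimum raised to 10 per 1000, which left 4 and 1 control cells, 44 rose and 12 fell, and with at most 5% mitochondrial UMIs, which left 5 and 1, 14 rose and 16 fell.

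Of the genes with the largest rise, Cd63, a tetraspanin of lysosomes, was at 393 and 424 CPM in NASH, against 0 and 14.1 CPM in control, from 537 UMIs in the NASH cells against 1 in the control cells, a ratio of CPM of 74.6 with an exact 95% counting interval of 13.3 to 2950.3. Mmp12, macrophage elastase, was at 203 and 384 CPM in NASH, against 0 and 14.1 CPM in control, from 384 UMIs in the NASH cells against 1 in the control cells, a ratio of CPM of 53.3 with an exact 95% counting interval of 9.51 to 2111. Cd9, a tetraspanin of lipid-associated macrophages, rose to 305 and 316 CPM in NASH, against 17.9 and 42.3 CPM in control (log2 fold change 3.84, SE 0.422, adjusted p = 0.00099). Every NASH library lay above both control libraries in these genes. Lgals1, galectin-1, rose to 407 and 286 CPM in NASH, against 44.7 and 14.1 CPM in control (log2 3.76, adjusted p = 0.00164), and Tmsb10, an actin-binding thymosin, to 1109.8 and 903 CPM in NASH, against 134 and 113 CPM in control (log2 3.37, adjusted p = 0.000295). Ms4a7, a tetraspan membrane protein, had 223 UMIs in the NASH cells against 3 in the control cells, a ratio of CPM of 10.3 with an exact 95% counting interval of 3.49 to 50.4 (adjusted p = 0.00311). Fabp5, a fatty acid-binding protein, had 185 UMIs in the NASH cells against 3 in the control cells, a ratio of CPM of 8.56 with an exact 95% counting interval of 2.88 to 41.9 (adjusted p = 0.0245). Clec4b1, a C-type lectin, was also among these 10, with 252 UMIs in the NASH cells against 3 in the control cells, a ratio of CPM of 11.7 with an exact 95% counting interval of 3.95 to 56.9 (adjusted p = 0.00652). All of these lost their calls without control 1 and without control 2 (adjusted p up to 0.47 over all settings).

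Of the genes with the largest fall, Cd163 was at 2.99 and 7.73 CPM in NASH, against 841 and 790.3 CPM in control (log2 fold change -6.81, SE 0.368, adjusted p = 6.09e-06). Cxcl13, a chemokine that draws B cells, fell to 2.99 and 6.19 CPM in NASH, against 349 and 974 CPM in control (log2 -6.64, adjusted p = 0.000238), and the complement genes C6 and C4b fell to 35.9 and 71.1 CPM in NASH, against 832 and 974 CPM in control for C6 (log2 -3.70, adjusted p = 0.000238) and to 14.96 and 17.01 CPM in NASH, against 152 and 310.5 CPM in control for C4b (log2 -3.38, adjusted p = 0.00164). The control libraries lay above both NASH libraries in each. Ets2, a transcription factor, fell to 10.5 and 21.7 CPM in NASH, against 134 and 155 CPM in control (log2 -2.77, adjusted p = 0.00592), Sh3bp5, a guanine nucleotide exchange factor, to 38.9 and 46.4 CPM in NASH, against 233 and 437 CPM in control (log2 -2.54, adjusted p = 0.00256), and Hexim1, an inhibitor of the transcription elongation factor P-TEFb, to 17.9 and 21.7 CPM in NASH, against 143 and 155 CPM in control (log2 -2.52, adjusted p = 0.00447). Apoa1, an apolipoprotein of hepatocytes, was at 10.5 and 10.8 CPM in NASH, against 89.5 and 113 CPM in control (log2 -2.82, adjusted p = 0.00616) and belongs to the hepatocyte list that was higher in control in sum. Cd55, which limits complement activation, had 1 UMI in NASH and 30 in control, a ratio of CPM of 0.00463 with a counting interval of 0.000113 to 0.0278 (adjusted p = 0.0126). None of these genes, Cd55 among them, kept a call without control 1 or without control 2.

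Kupffer identity genes fell as a group but not throughout. Of 20 listed, 19 were tested, 12 fell and 2 rose, with a median log2 fold change of -1.61 against 0.00 over all genes tested. DESeq2's Wald test called 11 lower and 1 higher. In this list and the next ones, genes beyond the 4 with the smallest p were named after their values were seen. Slc40a1, the iron exporter ferroportin, fell to 558 and 401 CPM in NASH, against 2318 and 2583 CPM in control (log2 -1.98, adjusted p = 0.00135). Hmox1, which degrades haem, fell to 244 and 501 CPM in NASH, against 1441 and 3895 CPM in control (log2 -2.45, adjusted p = 0.0125), Mrc1, the mannose receptor, to 191 and 195 CPM in NASH, against 752 and 833 CPM in control (log2 -1.66, adjusted p = 0.00311), and Fcna, ficolin A, to 357 and 263 CPM in NASH, against 1512 and 1199.6 CPM in control (log2 -1.77, adjusted p = 0.00389). Cd207, langerin, rose to 383 and 309 CPM in NASH, against 224 and 56.5 CPM in control (log2 1.53, adjusted p = 0.0315), and Il18bp, which neutralises interleukin-18, to 341 and 345 CPM in NASH, against 215 and 183 CPM in control (log2 1.13, adjusted p = 0.0218). Cd5l was at 3389 and 3018 CPM in NASH, against 3544 and 4855 CPM in control (log2 -0.01, adjusted p = 0.974), and Vsig4 at 965 and 563 CPM in NASH, against 1316 and 1482 CPM in control (log2 -0.49, adjusted p = 0.254). Marco, a scavenger receptor, was at 16.5 and 7.73 CPM in NASH, against 403 and 2766 CPM in control, and the wide gap between the control libraries went with an adjusted p of 0.0728. Non-dividing cells had 12 of 20 genes lower and 4 higher, with a median log2 fold change of -1.40.

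Of 12 transcription factors of Kupffer cells, 3 fell and none rose (2 and 0 by DESeq2, and 5 and 1 at an unadjusted p under 0.05). Maf, a factor that restrains self-renewal of macrophages in the mouse, was at 218 and 230.5 CPM in NASH, against 841 and 663 CPM in control (log2 -1.39, adjusted p = 0.00775). Rxra, a nuclear receptor, was at 50.9 and 40.2 CPM in NASH, against 242 and 113 CPM in control (log2 -1.68, adjusted p = 0.0195), and Zeb2 at 229 and 259.8 CPM in NASH, against 546 and 931 CPM in control (log2 -1.20, adjusted p = 0.0186). Nr1h3, the liver X receptor alpha, was at 211 and 275 CPM in NASH, against 349 and 423 CPM in control (log2 -0.29, adjusted p = 0.489). Both NASH libraries lay below both control libraries in all of these 4 factors, of which the 3 named first passed. Calls for Maf, Rxra and Zeb2 were lost without either control library (adjusted p up to 0.769).

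Genes of lipid-associated macrophages rose in 13 of 18 tested of 20 listed and fell in none, with a median log2 fold change of 2.64, or 2.23 with genes that had no UMI in 1 diet set at their bounds. DESeq2 called 11 higher and 0 lower. Lgals3, galectin-3, rose to 1292 and 1884 CPM in NASH, against 447 and 395 CPM in control (log2 2.26, adjusted p = 0.00127), Capg, an actin-capping protein, to 320.1 and 221 CPM in NASH, against 89.5 and 56.5 CPM in control (log2 2.19, adjusted p = 0.00811), and Ctsd, cathepsin D, to 2082 and 1419.8 CPM in NASH, against 993 and 988 CPM in control (log2 1.19, adjusted p = 0.0139). Tyrobp, the adaptor through which TREM2 signals, rose to 2688 and 2584 CPM in NASH, against 1799 and 847 CPM in control (log2 1.33, adjusted p = 0.0179). Gpnmb had 395 and 95.9 CPM in NASH from 326 UMIs, against 0 UMIs in control, at least 15.1-fold higher with 3 counts set as the floor over the control group, and it did not pass the test (adjusted p = 0.273). Spp1 had 323 and 91.3 CPM in NASH from 275 UMIs, against 0 UMIs in control, at least 12.7-fold higher (adjusted p = 0.214). Lpl, lipoprotein lipase, was at 1503 and 1220.3 CPM in NASH, against 609 and 1383 CPM in control (log2 0.86, adjusted p = 0.0931). In non-dividing cells 19 of 20 rose and none fell.

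Recruited macrophage genes rose in 6 of 12 tested of 16 listed and none fell, with a median of 2.01, or 1.80 with bounds (4 higher and 0 lower by DESeq2). Ccr2 had 170 UMIs in the NASH cells against 3 in the control cells, a ratio of CPM of 7.87 with an exact 95% counting interval of 2.65 to 38.5 (adjusted p = 0.00858). Ccl9, a chemokine, rose to 236 and 387 CPM in NASH, against 98.4 and 127 CPM in control (log2 1.85, adjusted p = 0.0112), and Clec12a, an inhibitory lectin, to 423 and 428 CPM in NASH, against 251 and 325 CPM in control (log2 0.96, adjusted p = 0.0339). Chil3, a chitinase-like protein that also stands in the list of growth signals, had 73 UMIs in NASH, against 0 in control, at least 3.38-fold higher (adjusted p = 0.0112). Ly6c2, the marker of inflammatory monocytes, was at 32.9 and 26.3 CPM in NASH, against 26.8 and 70.6 CPM in control (log2 -0.21, adjusted p = 0.84), and Plac8 at 431 and 563 CPM in NASH, against 752 and 239.9 CPM in control (log2 0.29, adjusted p = 0.652), and for both the libraries of the diets overlapped. Of 8 monocyte genes, 6 were tested and 3 rose, namely Ccr2, Chil3 and S100a4, a calcium-binding protein with 63 UMIs in NASH, against 0 in control, at least 2.92-fold higher (adjusted p = 0.0144). In non-dividing cells 10 of 15 tested recruited macrophage genes rose and 1 fell.

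All 7 tested of 9 MHC class II genes rose, also by DESeq2, with a median of 2.74. H2-Ab1 rose to 5858 and 5459.7 CPM in NASH, against 1199 and 452 CPM in control (log2 fold change 3.09, SE 0.357, adjusted p = 0.00122), and Cd74, the invariant chain, to 13096 and 13461 CPM in NASH, against 3419 and 1623 CPM in control (log2 fold change 2.74, SE 0.309, adjusted p = 0.00114). H2-Aa rose to 5752 and 5243 CPM in NASH, against 1298 and 635 CPM in control (log2 2.84, adjusted p = 0.000874), and H2-Eb1 to 4101 and 3752 CPM in NASH, against 1020.2 and 310.5 CPM in control (log2 2.86, adjusted p = 0.00266). The control libraries stood far below the NASH libraries and apart from each other, with control 2 the lower in each. Interferon response genes rose in 5 of 13 tested of 16 listed and fell in none, with a median of 1.49 (3 higher and 0 lower by DESeq2). Bst2, tetherin, rose to 522 and 586 CPM in NASH, against 206 and 310.5 CPM in control (log2 1.505, adjusted p = 0.00899), Rtp4 to 193 and 246 CPM in NASH, against 71.6 and 42.3 CPM in control (log2 2.22, adjusted p = 0.00701) and Isg15 to 100.2 and 173 CPM in NASH, against 53.7 and 28.2 CPM in control (log2 1.99, adjusted p = 0.0254). In non-dividing cells 9 of 9 MHC class II genes and 13 of 16 interferon response genes rose and none fell. Without control 2 none of the genes in these lists that are named here passed, and without control 1 only Cd74 of them did.

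The division lists were read by the same diet test in dividing cells, which were chosen for Mki67 and Top2a in both diets. Of all genes tested, 8.52% rose and 5.93% fell. Of 43 tested genes of G2 and mitosis, 2 fell and none rose, with a median of -0.01, and of 28 tested genes of replication and S phase, 3 rose and none fell, with a median of 0.13. DESeq2 called none of either list, and at an unadjusted p under 0.05 edgeR had 3 higher and 5 lower of the first and 4 higher and 1 lower of the second. Of 9 tested cyclins and kinases of G1 and S entry, none passed edgeR's test or DESeq2's (1 lower at an unadjusted p under 0.05). Ckap2, a spindle protein, was at 34.4 and 46.4 CPM in NASH, against 143 and 141 CPM in control (log2 -1.45, adjusted p = 0.0237), and Lbr, the lamin B receptor, at 105 and 92.8 CPM in NASH, against 286 and 212 CPM in control (log2 -0.999, adjusted p = 0.0451). Tyms, thymidylate synthase, rose to 124 and 116 CPM in NASH, against 53.7 and 14.1 CPM in control (log2 2.01, adjusted p = 0.0205), Dut, which clears dUTP, to 121 and 109.8 CPM in NASH, against 53.7 and 28.2 CPM in control (log2 1.76, adjusted p = 0.0232), and Prim1, the primase subunit, had 48 UMIs in NASH, against 0 in control (adjusted p = 0.0218). The rule chose cells on Mki67 and Top2a at unequal depth, which was not matched between the diets here.

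Of 18 genes of nucleotide synthesis, 13 were tested and 5 rose, with a median of 0.77. Tk1, thymidine kinase, rose to 343 and 300.1 CPM in NASH, against 107 and 212 CPM in control (log2 1.46, adjusted p = 0.0173), Nme1, a nucleoside diphosphate kinase, to 254 and 247 CPM in NASH, against 107 and 127 CPM in control (log2 1.48, adjusted p = 0.0125), and Impdh2, of guanine nucleotide synthesis, to 118 and 88.2 CPM in NASH, against 26.8 and 28.2 CPM in control (log2 2.26, adjusted p = 0.017). Of 16 genes of oxidative phosphorylation, 9 rose and none fell, with a median of 1.07 (7 higher and 0 lower by DESeq2). Uqcrc1, of complex III, rose to 145 and 175 CPM in NASH, against 44.7 and 28.2 CPM in control (log2 2.41, adjusted p = 0.00752), Sdhb, of complex II, to 247 and 246 CPM in NASH, against 134 and 70.6 CPM in control (log2 1.54, adjusted p = 0.0155), and Cox5a, of complex IV, to 932 and 947 CPM in NASH, against 626 and 466 CPM in control (log2 1.13, adjusted p = 0.0156). The libraries in which both lists were higher were the deeper ones with the lower mitochondrial share, whose part was not tested. Each call in these lists in dividing cells was lost without either control library. In non-dividing cells 14 of 16 oxidative phosphorylation genes also rose. Of 18 nucleotide synthesis genes tested there, 12 rose and 1 fell, with a median of 0.93.

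Genes that hold back the cycle gave 1 call. Btg1, an antiproliferative factor, fell to 142 and 165 CPM in NASH, against 519 and 550.4 CPM in control (log2 -1.43, adjusted p = 0.0066). Cdkn1a, the p21 inhibitor, was at 38.9 and 92.8 CPM in NASH, against 215 and 155 CPM in control (log2 -1.17, adjusted p = 0.0953), and Cdkn2c, p18, at 129 and 102 CPM in NASH, against 71.6 and 98.8 CPM in control (log2 0.84, adjusted p = 0.153). None of the 4 tested targets of p53 passed either test (1 lower at an unadjusted p under 0.05), and of 12 tested growth signals of macrophages only Chil3 rose and only Maf fell. Immediate-early genes fell in 5 of 13 tested, with a median of -1.03. Dusp1 was at 73.3 and 97.4 CPM in NASH, against 456 and 296 CPM in control (log2 -1.82, adjusted p = 0.00654), Jund at 142 and 179 CPM in NASH, against 644 and 550.4 CPM in control (log2 -1.54, adjusted p = 0.00605), and Fos at 112 and 116 CPM in NASH, against 421 and 226 CPM in control (log2 -1.20, adjusted p = 0.029). In non-dividing cells 10 of 14 of these genes fell as well. Raising the C1q minimum, setting the mitochondrial limit at 5% or leaving out a control library ended the calls of Btg1, Dusp1 and Jund (adjusted p up to 0.982).

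**Figure D4:**
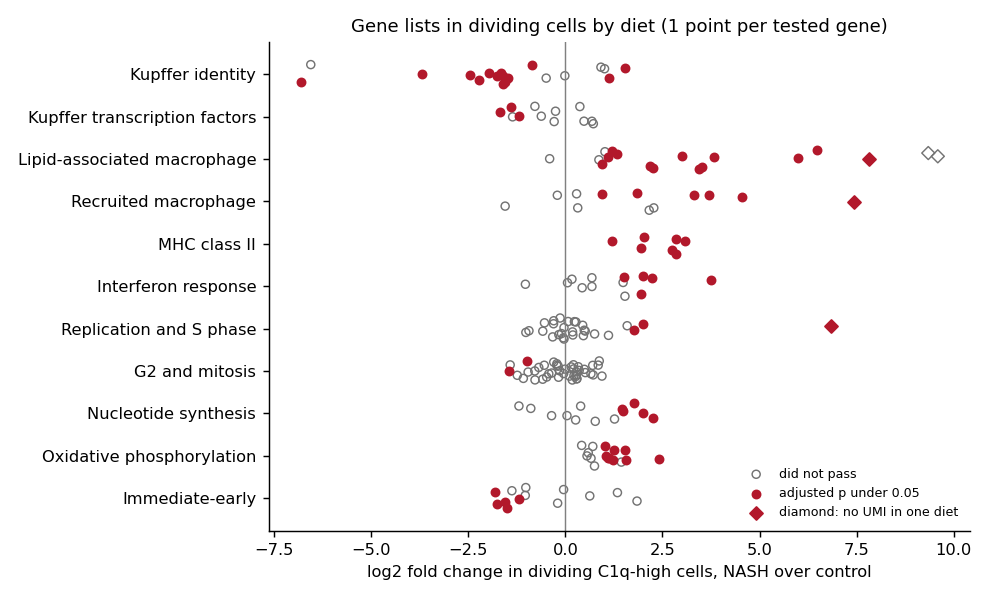
Log2 fold changes of NASH over control dividing cells for the genes of the lists named on the axis. Each point is 1 tested gene, filled where its adjusted p was under 0.05, with diamonds for genes with no UMI in 1 diet. MHC class II and lipid-associated genes lie to the right (medians 2.74 and 2.64), Kupffer identity genes to the left (median -1.61), and G2 and mitosis genes around 0 (median -0.01).

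Dividing cells were then compared with non-dividing cells of the same libraries, with the library as a block. Spread was pooled over genes, so the very small p-values of this fit are not a measure of agreement between libraries. Of 9452 genes tested, 841 were higher (8.9%) and 1046 lower (11.1%) in dividing cells, 20.0% in all, and 87 of the higher and 4 of the lower genes belong to the cycle lists. The counts also hold 2 higher and 3 lower genes of the rule, whose p is not read. Without the cycle lists and the rule genes, 752 genes were higher and 1039 lower. The 752 still hold genes of division that the lists omit and that follow the choice of cells. Genes of macrophage identity were among the lower ones. All 8 called of 9 core genes and all 18 called of 20 Kupffer identity genes were lower, with medians of -0.87 and -0.75 against -0.12 over all genes tested. Dividing cells had more UMIs per cell and more transcripts of division, and CPM are shares of the total.

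Clec4f was at 1173 and 1066 CPM in dividing and 1804 and 2507 CPM in non-dividing cells of NASH 1 and NASH 2, and at 2828 and 2371 CPM in dividing and 4625 and 4165 CPM in non-dividing cells of control 1 and control 2 (log2 fold change -1.12, SE 0.119, adjusted p = 2.54e-19). Timd4 was at 23.9 and 18.6 CPM in dividing and 38.8 and 60.4 CPM in non-dividing cells in NASH, and at 259.5 and 494 against 432 and 512 CPM in control (log2 fold change -0.999, SE 0.179, adjusted p = 5e-07). Both fell in dividing cells in all 4 libraries. Trem2 (log2 -0.40, adjusted p = 0.0626) and Cx3cr1 (log2 -0.07, adjusted p = 0.979) did not pass the test. Vsig4 fell to 965 and 563 CPM in dividing cells of NASH, against 1597 and 1535 CPM in non-dividing ones, and to 1316 and 1482 against 3001 and 2966 CPM in control (log2 fold change -1.36, SE 0.124, adjusted p = 3.78e-26). Il18bp fell by 1.44 on the log2 scale (adjusted p = 6.89e-21).

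State genes of lipid-associated macrophages were lower in dividing cells in 14 of 20 and higher in none, with a median of -0.66 (9 and 0 by DESeq2). Mmp12 was at 203 and 384 CPM in dividing cells of NASH, against 806 and 701 CPM in non-dividing ones (log2 fold change -1.63, SE 0.189, adjusted p = 3.08e-16), and Cd63 at 393 and 424 against 931 and 770.2 CPM (log2 fold change -1.29, SE 0.181, adjusted p = 3.06e-11). In control both genes had at most 1 UMI in dividing cells. Apoc1, an apolipoprotein that macrophages make, fell by 1.65 on the log2 scale (adjusted p = 2.45e-41), Tcn2, the carrier of vitamin B12, by 1.25 (adjusted p = 2.86e-12), Cxcl13 by 1.46 (adjusted p = 3.4e-12) and Wfdc17, a secreted whey acidic protein domain protein, by 1.46 (adjusted p = 0.0147). Of MHC class II genes 7 of 9 were lower and none higher, and of recruited macrophage genes 4 of 15 were lower and 1, Chil3, higher, a call that was lost without NASH 1, without cells of other lineages and by DESeq2 and turned to -0.21 on the log2 scale with the C1q minimum at 10 per 1000 (adjusted p = 0.839). Interferon response genes were lower in 7 of 16 and higher in none.

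Outside the cycle lists, the genes with the largest rise in dividing cells also belong to division. Prc1, the spindle midzone crosslinker, was at 135 and 128 CPM in dividing cells of NASH, against 1.28 and 0.487 CPM in non-dividing ones. In control Prc1 was at 188 and 254 against 2.16 and 2.39 CPM, and its log2 fold change was 6.67 (SE 0.253). Stmn1, which destabilises microtubules, was at 1439 and 1234 against 39.8 and 33.03 CPM in NASH. In control Stmn1 was at 618 and 804 against 6.78 and 13.1 CPM, and its log2 fold change was 5.27 (SE 0.164). Spc24 and Spc25, kinetochore subunits of the NDC80 complex, rose by 5.27 and 5.23 on the log2 scale. Ncapd2, a condensin subunit, rose by 4.72, Asf1b, a histone chaperone, by 4.62 and H2afx, a histone variant of DNA repair, by 4.31. Lockd, a noncoding RNA next to Cdkn1b, rose by 5.58. Such genes move with the Mki67 and Top2a that chose the cells, so their levels are given as a description and their p is not read.

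Of genes of nucleotide synthesis, 10 of 17 tested rose in dividing cells and none fell, with a median of 0.79, and of oxidative phosphorylation genes 1 of 16, Cox5a, fell and none rose. Tyms was at 124 and 116 CPM in dividing cells of NASH, against 7.70 and 5.61 CPM in non-dividing ones, and at 53.7 and 14.1 against 1.85 and 2.79 CPM in control. Cell cycle inhibitors were mixed. Cdkn2c was at 129 and 102 CPM in dividing cells of NASH, against 10.1 and 8.90 CPM in non-dividing ones, and at 71.6 and 98.8 against 9.25 and 5.58 CPM in control. Cdkn1a was at 38.9 and 92.8 against 21.2 and 31.3 CPM in NASH and at 215 and 155 against 53.3 and 31.9 CPM in control. Both inhibitors were thus higher in dividing cells of each library, without a test, since they belong to the lists of the cycle.

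The difference between dividing and non-dividing cells was itself compared between the diets, as the interaction of diet and division. Of 9452 genes tested, 11 passed (0.116%), 8 with a positive (0.0846%) and 3 with a negative (0.0317%) log2 difference. Tmsb4x, an actin-sequestering thymosin, was at 27711 and 23307 CPM in dividing and 28920.1 and 28243 CPM in non-dividing cells of NASH, and at 9307 and 5504 CPM in dividing and 14028 and 16529 CPM in non-dividing cells of control (log2 fold change 1.01, SE 0.185, adjusted p = 0.000978). Wfdc17 was at 2734 and 1712 against 3391 and 3860.4 CPM in NASH and at 2014 and 1439 against 5171 and 6143 CPM in control (log2 fold change 1.06, SE 0.205, adjusted p = 0.000978). Both fell by more in dividing cells of control than of NASH. Prdx5, a peroxiredoxin, differed by 1.25 on the log2 scale (adjusted p = 0.0159), Ifitm3, an interferon-induced membrane protein, by 0.997 (adjusted p = 0.0113), and Lepr, the leptin receptor, by 2.19 (adjusted p = 0.00291).

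In 2 genes of mitochondrial proteins the difference ran the other way. Mthfd2, of mitochondrial folate metabolism, was at 119.7 and 153 CPM in dividing and 16.2 and 21.2 CPM in non-dividing cells of NASH, and at 161 and 310.5 CPM in dividing and 8.94 and 10.4 CPM in non-dividing cells of control (log2 fold change -1.57, SE 0.350, adjusted p = 0.0113). Hspa9, a mitochondrial chaperone, was at 114 and 179 against 71.4 and 70.6 CPM in NASH and at 403 and 692 against 83.6 and 131 CPM in control (log2 fold change -1.21, SE 0.277, adjusted p = 0.0159). Each of these 7 genes lost its call in 4 to 8 of 14 other settings, with adjusted p up to 1. The remaining 4 of the 11 were C1qb, a gene of the rule that the fit counts but whose p is not read, and Hist1h2ap, Cd164 and Ccl5, which the naming rule leaves out and which are named after their values were seen. Hist1h2ap, a histone gene with near-identical copies, was at 3542 and 2812 CPM in dividing cells of NASH, against 1539 and 1143 CPM in those of control, and at 23.9 and 23.2 CPM in non-dividing cells of NASH, against 65.1 and 41.02 CPM in those of control.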

How the data were processed

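Single-cell RNA-seq of sorted CD45+ CD146- liver cells gave 2 NASH and 2 control libraries. The authors deposited raw UMI counts per gene and barcode for each library, made with Cell Ranger on mm10 per the submitters' processing notes, which also name Seurat. The sources used here name neither versions nor filters for these tools. The members and the gene lists were chosen with earlier results of these data known.

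Barcodes were kept at 200 genes or more and at most 10% mitochondrial UMIs. Counts of the 27998 genes were summed per library over dividing and over non-dividing cells. Sums were tested in edgeR 4.0.16 (limma 3.58.1, R 4.3.3) with TMM scaling, filterByExpr and robust quasi-likelihood fits, adjusted by Benjamini and Hochberg's method over all genes of a fit. The diet effect was fitted on the 4 sums of dividing cells, and likewise on those of non-dividing cells, dividing against non-dividing cells with the library as a block, and their interaction over all 8 sums in the same way. CPM scales the UMIs of a sum to its total. Shares of cells were read after random thinning to 2000 UMIs per cell, with exact Clopper-Pearson intervals and exact permutation tests over libraries. The floor for a count of 0 was 3 counts, over the group for fold changes and per library for shares of cells. The code was tested on simulated data. Doublets were not removed in the main result, and Scrublet's highest scores (0.8% per 1000 cells), run through scanpy 1.11.5, were left out as an alternative. DESeq2 1.42.0 was another alternative.

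Named genes were the rule and state genes, the 10 largest diet effects each way at 100 CPM or more with libraries of the diets apart, the 8 interactions of lowest p (the fit called 11 genes), the 8 largest differences each way between dividing and non-dividing cells outside the cycle lists, the 4 highest members of each cycle list and in each other list the 4 members of lowest diet p in dividing cells. Genes starting with mt-, Rpl, Rps or Hist and predicted genes were counted only. Gene positions are those of the mm10 annotation, and promoters are from RefSeq. Genes that share reads with near-identical copies or antisense partners could not be separated in these counts. The result of 1 gene is not reported here.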

Additional observations from a re-analysis of the deposited data

Results flagged for a closer look

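The difference in dividing share between Trem2-positive and Trem2-negative C1q-high cells at 2000 UMIs had opposite signs in the diets. It averaged -1.42 percentage points in NASH, where both libraries were negative, and 0.365 points in control, where both were positive. The difference between the diets was not tested, and the 2 control values rest on 1 dividing Trem2-positive cell each. The opposite signs did not hold under most other settings. Both control libraries were negative with at least 2 UMIs of Mki67 and Top2a, with C1q at 10 per 1000, with thinning to 1000 UMIs and with Trem2 at 1 UMI per 1000, and control 1 turned to -1.08 points without putative doublets. Without thinning all 4 libraries were positive, at 5.61 and 2.62 points in NASH, against 3.504 and 1.97 points in control.

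By edgeR's interaction test, the difference between dividing and non-dividing cells differed between the diets in 11 genes, 7 of which are named here by the rule on the lowest p. The log2 difference, NASH minus control, was 1.01 for Tmsb4x, 1.06 for Wfdc17, 2.19 for Lepr, 1.00 for Ifitm3 and 1.25 for Prdx5, and it was -1.57 for Mthfd2 and -1.21 for Hspa9. In both NASH libraries and both control libraries Mthfd2 and Hspa9 were higher in dividing than in non-dividing cells. Lepr had 10 and 30 UMIs in dividing cells of NASH, against 14 and 3 in those of control. Median depth, mitochondrial share and the traces of hepatocyte and endothelial genes also differed between the diets, and their part in these differences was not tested.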

How the results depend on the processing

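Depth and the 37 control cells limit the results. With 2 libraries a diet, no exact test could pass 0.05, and the diet calls in dividing cells rest on both control libraries: 1 gene was higher and 0 lower without control 1, and 0 were called without control 2, where 1155 had an unadjusted p under 0.05. All 772 calls that could be tested in those fits kept their sign. The cause of the shifts below was not tested. The diet difference in the dividing share, -0.29 points as reported, was 0.0219 with at least 2 UMIs of Mki67 and Top2a, 0.493 with C1q at 10 per 1000, 0.653 with at most 5% mitochondrial UMIs and 2.78 without thinning. State share differences, in the same order of 2 UMIs, C1q, mitochondrial limit, thinning to 1000 UMIs, no thinning, and at least 1 UMI per 1000 (added after seeing the data), were -26.1, -57.7, -56.1, -31.2, -66.9 and -12.8 points for Timd4, 53.1, 69.4, 48.6, 32.7, 68.7 and 34.9 for Trem2, and 39.6, 25.4, 40.1, 29.5, 61.0 and 15.4 for Cx3cr1. For Clec4f they were -60.0, -58.8, -41.2, -18.3 and -61.2 without the C1q setting, which moved it by less than the spread. All of these state share differences kept their sign. The dividing share by state, -0.16 points for Timd4, -0.53 for Trem2 and -0.58 for Cx3cr1 as reported, became 1.14 for Timd4 at 1 UMI per 1000, 0.527 for Trem2 at 5% mitochondrial UMIs and 3.42 without thinning, and 2.70 for Cx3cr1 without thinning. Clec4f, at -0.86 points as reported, turned to 0.170 with 2 UMIs, positive in all 4 libraries. Unthinned and with the state gene at 1 UMI per 1000 (added after seeing the data), all 4 genes had a negative mean. Timd4 was at -2.73, Clec4f at -4.18 and Trem2 at -2.21, each negative in all 4 libraries. Cx3cr1 was at -1.12 and positive in NASH 1. The Timd4 values of NASH rest on 3 and 7 positive cells.

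For the diet effect in dividing cells, genes higher and lower were 143 and 161 with 2 UMIs, 44 and 12 with C1q at 10, 14 and 16 at 5% mitochondrial UMIs, 229 and 86 by DESeq2, 195 and 199 with the cells thinned, and 198 and 185 with Mki67 and Top2a read at 2000 UMIs (added after seeing the data). Without a filter on low counts 683 were higher. The share of calls that were higher was 58.9% as reported, 72.7% by DESeq2 and 74.2% without a filter. In non-dividing cells 1263 were higher and 1143 lower at 5% mitochondrial UMIs, and 1308 lower by DESeq2. Genes lower in dividing cells numbered 449 with C1q at 10, 312 at 5% mitochondrial UMIs and 398 by DESeq2. Interaction calls, higher and lower, were 14 and 1 with 2 UMIs, 1 and 0 with C1q at 10, 3 and 0 at 5% mitochondrial UMIs, 1 and 0 by DESeq2, 5 higher without a filter, 5 higher without cells of other lineages (added after seeing the data), and 67 and 0 with Mki67 and Top2a read at 2000 UMIs. In the settings with 0 lower calls, between 199 and 655 genes had an unadjusted p under 0.05 in either direction. Leaving out 1 library at a time, genes higher and lower ranged over 0 to 206 and 0 to 111 for the diet effect in dividing cells, 1726 to 2383 and 1278 to 2063 in non-dividing cells, 538 to 852 and 511 to 677 for dividing against non-dividing cells, and 7 to 196 and 0 to 12 for the interaction. Chil3, higher in dividing cells as reported, was at -0.21 on the log2 scale with C1q at 10 per 1000 (adjusted p = 0.839).

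The labels do not say whether same-numbered libraries of the diets share more than a number. Their deviations correlated at 0.0143 in dividing and -0.0758 in non-dividing cells over genes. With 2 libraries a diet, these values cannot exclude a shared batch. With the replicate block, 562 genes were higher and 426 lower in dividing cells, 2295 and 2084 in non-dividing cells, and the interaction gave 14 higher and 2 lower.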
